A study of Homo sapiens with 6 samples.

Results

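Acute-phase and secreted innate defense genes were followed in MCF10A cells after DAB2IP knockdown. The 10 members were SAA1, SAA2, LCN2, LTF, ORM1, ORM2, SERPINA3, PI3, SLPI and CHI3L1, and each was taken by its symbol from a count table of 58735 genes. They were chosen from the measured responses in this same contrast, so their levels and fold changes are given as a description. For the same reason, the edgeR calls and adjusted p-values printed for members carry no weight as tests. MCF10A is a nontumorigenic, immortalized human mammary epithelial cell line. The controls were 3 libraries from cells given a nontargeting siRNA pool (siControl), and the knockdown was 3 libraries from cells given siRNA against DAB2IP (siDAB2IP), a RasGAP. RNA was taken 48 hours after transfection. Cells of both groups grew in medium with horse serum, insulin, epidermal growth factor, cholera toxin and hydrocortisone, a glucocorticoid. A single cell line and 1 set of siRNA against DAB2IP were used. The labels do not state that replicates came from separate cultures, so the spread between libraries may be technical.

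The acute-phase response is the shift in plasma protein production that follows infection or injury. Liver cells make most of these proteins under the cytokines IL-1 and IL-6, which act through NF-κB, C/EBP and STAT3, and epithelia of the breast, airway and skin make several of them locally. Secreted antimicrobial and antiprotease proteins from these epithelia limit microbial growth and restrain neutrophil enzymes.

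The libraries held between 16353783 and 21916062 counts, and 15430 genes passed a filter on low counts. Levels are given as CPM, counts divided by the TMM-scaled library size. Where no read was counted, up to 3 counts remain possible, which equals 0.139 to 0.187 CPM and covers counting error only. DAB2IP measured 103, 94.2 and 77.4 CPM in the siControl libraries and 27.5, 25.6 and 22.4 CPM in the siDAB2IP libraries (log2 fold change -1.86, SE 0.13, edgeR adjusted p = 9.71e-05). All 10 basal mammary markers had counts and passed the filter, led by KRT5, and their sum ranged from 11561 to 13851 CPM in siControl and from 8733 to 10393 CPM in siDAB2IP. In that list, 4 genes, all keratins (KRT5, KRT14, KRT17 and KRT6A), were called lower and 1, LAMB3, was called higher. The 10 luminal markers summed to 608 to 846 CPM in siControl and 816 to 875 CPM in siDAB2IP, with 1 called lower and 1 higher. The 8 fibroblast markers summed to 163 to 293 CPM in siControl and 146 to 206 CPM in siDAB2IP, with 0 called lower and 1 higher. Part of the members are best known from liver, milk or neutrophils, and the markers of those cells were low or absent. The 8 hepatocyte markers summed to at most 0.720 CPM in any library, with ALB and TTR at 0 counts throughout. The 4 milk protein genes summed to at most 0.117 CPM, with CSN2, CSN3 and LALBA at 0 throughout. The 10 neutrophil and macrophage markers summed to 38.6 to 74.8 CPM in siControl and 51.7 to 80.9 CPM in siDAB2IP, most of it CD14 (56.8 ± 18.3 and 64.6 ± 14.0 CPM, SD, n = 3), while CEACAM8 was at 0 in every library and PTPRC and MPO averaged at most 0.0619 CPM. KRT5, KRT14, KRT17 and KRT6A fell in the same contrast as some members did, while 5 of the 10 basal markers were not called. Any part of the keratin fall in the levels of the members was not tested.

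Of the 10 members, 9 passed the filter and ORM2 did not. Genes were called changed at an edgeR adjusted p under 0.05 over all 15430 genes. By that threshold 6 members fell (SAA1, SAA2, LTF, ORM1, SERPINA3 and CHI3L1), where 7.65% of all genes tested were called lower. No member was called higher, where 6.55% of all genes tested were. DESeq2 called the same numbers as edgeR at the adjusted threshold. At an unadjusted p under 0.05 edgeR gave 7 members lower and 1 higher. The share of all genes at that looser threshold was not computed, and the shares above do not apply to it. LCN2, SLPI and PI3 were not called. For 6 of the 9 members every siDAB2IP library lay below every siControl library, against 18.3% of all genes tested. PI3 was the 1 member with every siDAB2IP library above every siControl library, against 17.6% of all genes. The 9 members had a median of -2.45 in log2 fold change, whereas all genes tested had a median of 0.01. These counts follow from how the members were chosen and carry no weight of their own. In these bulk libraries, fewer cells of a type and less RNA per cell cannot be told apart.

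**Figure D1:**
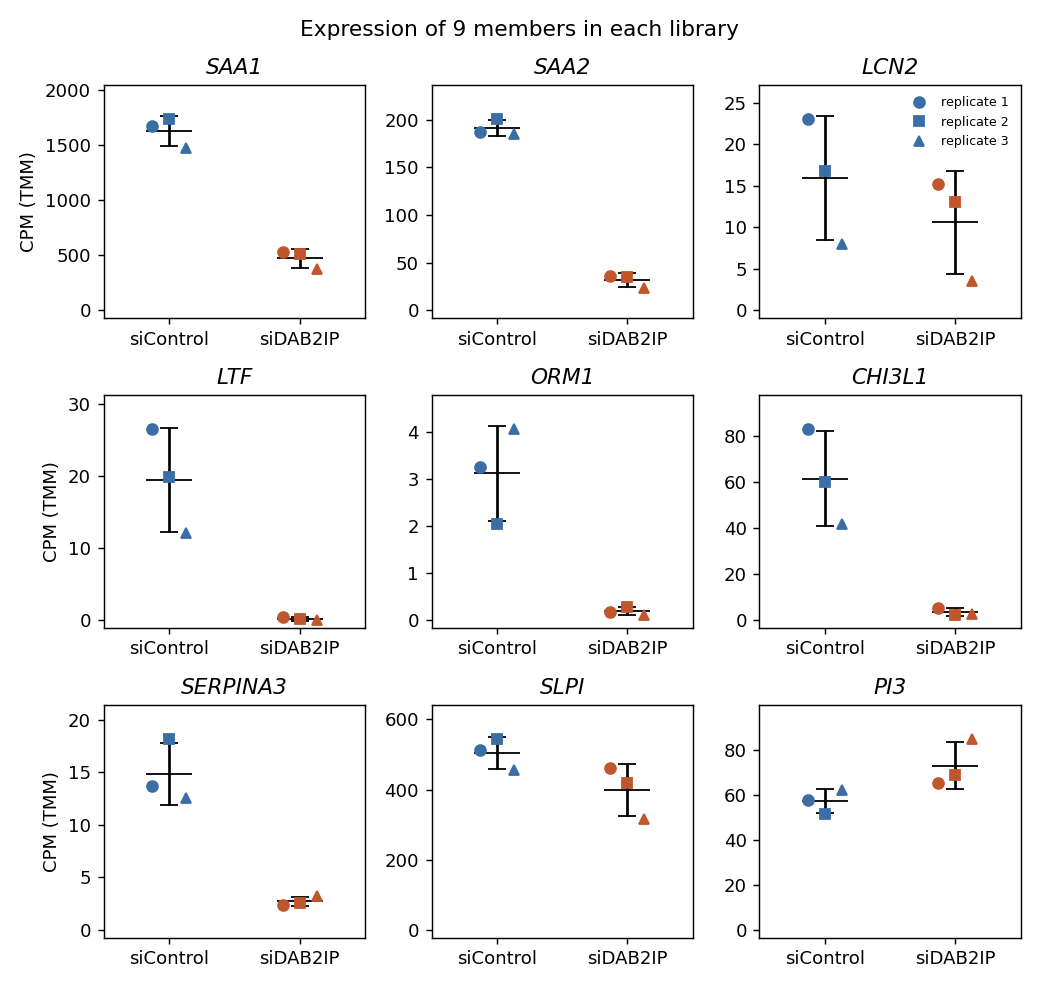
Expression of 9 members in CPM (TMM-scaled, linear axes from 0, a separate scale for each gene) in siControl (blue) and siDAB2IP (orange) libraries. Symbols mark replicate numbers, horizontal lines the mean and bars the SD (n = 3). SAA1 falls from 1473 to 1734 CPM to 376 to 529 CPM, LCN2 overlaps between the groups, and PI3 is higher in all 3 siDAB2IP libraries.

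The serum amyloid A proteins SAA1 and SAA2 are apolipoproteins of high-density lipoprotein and the archetypal acute-phase proteins. Their genes lie on chromosome 11 (GRCh38), SAA1 at chr11:18266174-18269977 on the plus strand and SAA2 at chr11:18239223-18248643 on the minus strand. The copies are nearly identical. Between the coding sequences of transcripts SAA1-201 and SAA2-201, 11 of 366 bases differed, an identity of 97.0%, and the stretch from coding base 217 to 306 held 9 of these differences. It is shown because most of the differences lie in it. Capitals mark the bases that differ (GENCODE release 29, 5′ to 3′, spliced across an intron).
SAA1-201, within chr11:18269320-18269792, plus strand: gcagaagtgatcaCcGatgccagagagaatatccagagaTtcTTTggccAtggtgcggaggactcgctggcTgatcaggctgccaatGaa
SAA2-201, within chr11:18245440-18245923, minus strand: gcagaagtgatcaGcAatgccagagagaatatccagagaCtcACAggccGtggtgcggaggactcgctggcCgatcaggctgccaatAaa
Of the 150-base stretches of SAA1 transcripts, 13.2% also occurred in SAA2 transcripts, and 5.33% of those of SAA2 occurred in SAA1, so reads of the pair may be split or dropped in counting. The pair was therefore also counted as a sum.

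SAA1 plus SAA2 gave 29854, 41656 and 28243 counts in the siControl libraries and 10027, 9800 and 6879 counts in the siDAB2IP libraries. The sum averaged 1817 ± 143 CPM in siControl and 502 ± 90.4 CPM in siDAB2IP (SD, n = 3), a log2 fold change of -1.86 with an SE of 0.15. The groups did not overlap, and the lowest library of each group was replicate 3. SAA1 alone measured 1673, 1734 and 1473 CPM against 529, 507 and 376 CPM, a log2 fold change of -1.79 (SE 0.15). SAA2 measured 187, 200 and 185 CPM against 36.4, 35.4 and 23.3 CPM, a log2 fold change of -2.59 (SE 0.16). SAA2 thus showed the larger fold change of the pair. SAA2 made up 10.1%, 10.4% and 11.2% of the summed counts in siControl and 6.44%, 6.52% and 5.84% in siDAB2IP. The share averaged 10.5% ± 0.57 in siControl and 6.27% ± 0.37 in siDAB2IP (SD, n = 3). The 95% Wilson intervals of single libraries spanned 9.73% to 11.5% across siControl and 5.31% to 7.03% across siDAB2IP, and cover counting error only. Even so, SAA1 remained among the most abundant transcripts. On the length-corrected FPKM scale it ranked 16 of all genes in siControl (2025 ± 173 FPKM) and 30 in siDAB2IP (585 ± 104 FPKM).

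**Figure D2:**
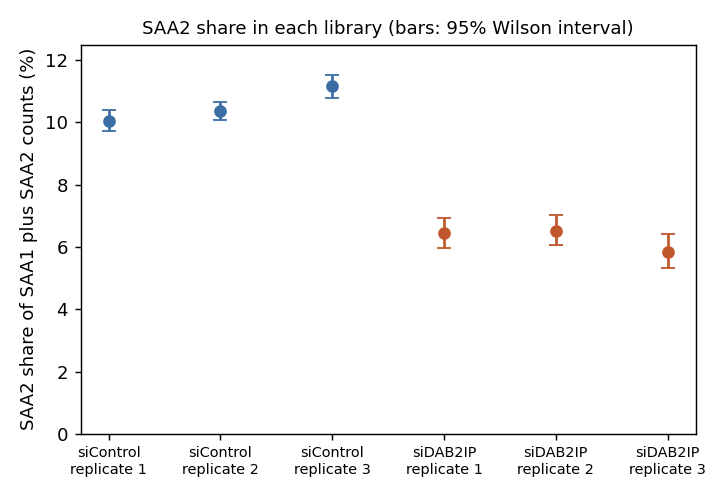
Share of SAA2 in the SAA1 plus SAA2 counts (percent, axis from 0) in each of the 6 libraries. Points are the measured shares and bars the 95% Wilson interval, which covers counting error only. The siControl libraries lie between 10.1% and 11.2% and the siDAB2IP libraries between 5.84% and 6.52%.

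The constitutive relative SAA4 is not a member and lies beside SAA2 at chr11:18231349-18236893 on the minus strand. SAA4 had 77, 117 and 97 counts in siControl and 12, 12 and 7 in siDAB2IP, and it fell with a log2 fold change of -3.17 (SE 0.28, edgeR adjusted p = 0.000229). Readthrough transcripts annotated as SAA2-SAA4 had 2, 5 and 3 counts against 0, 1 and 0 and did not pass the filter. RNA5SP334, a pseudogene inside SAA1 on the same strand, drew 72 and 9 counts in all, which cannot be told apart from SAA1 reads. On the other side of the cluster HPS5, a subunit of a lysosome biogenesis complex, went the opposite way (log2 fold change 0.48, SE 0.11, edgeR adjusted p = 0.0219, up to 0.111 without siControl replicate 1 or 2). HPS5 was named after its values were seen, in a look at genes within 100 kb of a member. Of the 22 neighbours tested there, 4 were called lower (SAA4, RNA5SP334, CIZ1 and AL049839.2) and 2 higher (HPS5 and SLC25A25). Of all genes tested, 7.65% were called lower and 6.55% higher. RNA5SP334 and AL049839.2 overlap SAA1 and SERPINA3 on the same strand, so their counts may include reads of these members.

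LCN2 and LTF act on microbial iron supply. Lipocalin 2 binds the siderophores by which bacteria take up iron, and lactoferrin, the transferrin relative of milk and neutrophil granules, binds iron itself. Both are antimicrobial, yet their responses were far apart in size.

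LTF (chr3:46435645-46485234, minus strand) had 426, 428 and 206 counts in siControl and 9, 2 and 0 in siDAB2IP. LTF thus passed from a low but well-counted level to the limit of detection, and its groups did not overlap. In CPM it measured 26.5, 19.9 and 12.1 against 0.508, 0.111 and 0, where the 0 allows up to 0.174 CPM. The fitted log2 fold change of -6.51 (SE 0.55) was the largest fall among all genes tested. Counts pooled over the libraries, 1060 against 11, gave a ratio of 93.6 with a 95% counting interval from 52.1 to 188. That interval covers counting error only, not the spread between libraries. The siDAB2IP level rests on few reads: without siDAB2IP replicate 1, which held 9 of the 11 counts, the fitted log2 fold change was -8.26, and without siDAB2IP replicate 3 it was -5.95. On the log2(FPKM + 1) scale, which understates the change of low genes, it was -2.36.

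LCN2 (chr9:128149071-128153455, plus strand) measured 23.0, 16.7 and 8.04 CPM in siControl and 15.2, 13.1 and 3.48 CPM in siDAB2IP. The groups overlapped, and replicate 3 was the lowest in both. LCN2 varied more between libraries of a group than any other member that passed the filter in siControl, with a coefficient of variation of 47.2%, and reached 59.0% in siDAB2IP. Its log2 fold change was -0.59 with an SE of 0.47, and it was not called. Taken by replicate number, siDAB2IP minus siControl was -0.60, -0.35 and -1.20 in log2 CPM, lower each time. With the replicate number as a block in the fit, LCN2 was called at -0.67 (edgeR adjusted p = 0.0262).

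ORM1 and ORM2 encode orosomucoid, or alpha-1-acid glycoprotein, a lipocalin that carries basic and lipophilic ligands in plasma. The genes sit in tandem on the plus strand of chromosome 9, ORM1 at chr9:114323056-114326475 and ORM2 at chr9:114329869-114333252, and their coding sequences differ at 31 of 603 bases (identity 94.9%). ORM1 had 52, 44 and 69 counts in siControl and 3, 5 and 2 in siDAB2IP. Every siDAB2IP library was below every siControl library, at 0.169, 0.277 and 0.116 CPM. Its fitted log2 fold change was -3.99 (SE 0.45). The pooled counts, 165 against 10, gave a ratio of 16.0 (95% counting interval 8.49 to 34.0, which covers counting error only). ORM2 was at the limit of detection in both groups, with 0, 0 and 2 counts in siControl and 0, 0 and 0 in siDAB2IP, and no fold change is given. Summed, ORM1 plus ORM2 gave a log2 fold change of -4.01 (SE 0.46). Of the 150-base stretches of ORM1, 18.2% also occurred in ORM2. Genes flanking the pair, COL27A1, AKNA and WHRN, were not called and had log2 fold changes between 0.02 and 0.20.

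CHI3L1 (chr1:203178931-203186749, minus strand) encodes YKL-40, a secreted chitinase-like lectin that binds chitin but does not cleave it. CHI3L1 had 1331, 1290 and 709 counts in siControl and 95, 40 and 44 in siDAB2IP. In CPM the values were 82.9, 59.9 and 41.6 against 5.36, 2.22 and 2.55. The highest siDAB2IP library was far below the lowest siControl library. CHI3L1 averaged 61.5 ± 20.7 CPM in siControl and 3.38 ± 1.73 CPM in siDAB2IP (SD, n = 3), and its log2 fold change of -4.18 (SE 0.34) ranked 3 by size among all falls.

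The protease inhibitors among the members did not move together. SERPINA3, SLPI and PI3 all restrain serine proteases of neutrophils or mast cells: SERPINA3, or alpha-1-antichymotrypsin, is an acute-phase serpin that inhibits cathepsin G and chymase, and SLPI and PI3 (elafin) are small WAP domain inhibitors of neutrophil elastase.

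SERPINA3 (chr14:94612377-94624055, plus strand) had 220, 391 and 214 counts in siControl and 42, 47 and 55 in siDAB2IP. In CPM it measured 13.7, 18.2 and 12.6 against 2.37, 2.6 and 3.19, without overlap. The log2 fold change was -2.45 (SE 0.21), and the coefficient of variation was 19.9% in siControl and 15.5% in siDAB2IP. Unlike SAA1, SAA2, LCN2 and SLPI, SERPINA3 was highest in replicate 3 within siDAB2IP. AL049839.2, a gene annotated on the same strand across SERPINA3, took 58 and 16 counts, which may include reads of SERPINA3.

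SLPI (chr20:45252239-45254564, minus strand) measured 514, 544 and 455 CPM in siControl and 461, 419 and 315 CPM in siDAB2IP. The groups overlapped by the highest siDAB2IP library, and the log2 fold change of -0.34 (SE 0.15) was not called. PI3 (chr20:45174876-45176544, plus strand) measured 57.8, 51.6 and 62.2 CPM in siControl and 65.1, 68.8 and 84.7 CPM in siDAB2IP. PI3 was the only member with a positive log2 fold change, 0.35 (SE 0.12), which was not called. PI3 and SLPI are neighbours in the WAP gene cluster of chromosome 20, and their values pointed in opposite directions: siDAB2IP minus siControl by replicate number was -0.16, -0.38 and -0.53 in log2 CPM for SLPI and 0.17, 0.42 and 0.45 for PI3. With the replicate number as a block, SLPI was called lower (-0.35, edgeR adjusted p = 0.0410) and PI3 higher (0.35, edgeR adjusted p = 0.0277), so that 8 members were called lower and 1 higher. Of all 15430 genes tested, that fit called 3233 in either direction, against 2192 without the block. Its shares by direction were not computed.

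**Figure D3:**
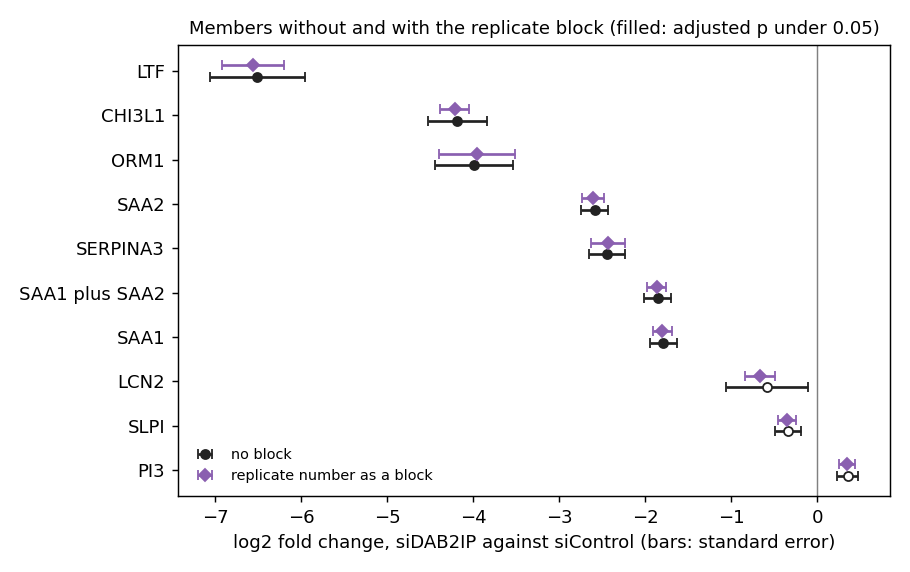
Log2 fold change of siDAB2IP against siControl for the members that passed the filter and for SAA1 plus SAA2, from edgeR without (circles) and with (diamonds) the replicate number as a block. Bars are standard errors, and filled symbols mark an adjusted p under 0.05 over all genes tested. LTF is farthest from 0 at -6.51, and LCN2, SLPI and PI3 are the members whose call differs between the fits.

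Measured per length in FPKM, the members covered a wide range of levels in siControl. SAA1 (2025 ± 173 FPKM) stood above SLPI (838 ± 77.2 FPKM), and both stood above PI3 (98.2 ± 8.93 FPKM) and SAA2 (85.0 ± 3.91 FPKM), whose libraries overlapped with each other. CHI3L1 followed with 17.9 ± 6.0 FPKM and LCN2 with 9.87 ± 4.65 FPKM. LTF (4.55 ± 1.68 FPKM), ORM1 (3.42 ± 1.10 FPKM) and SERPINA3 (2.93 ± 0.59 FPKM) came last among the members that passed the filter. From CHI3L1 down to SERPINA3, each gene overlapped with its neighbour in this order. The order depends on the gene lengths used, which were 796 bases for SAA1, 2227 for SAA2 and 577 for PI3. In CPM, without division by length, SAA2 averaged 191 and PI3 57.2 in siControl. LTF averaged 19.5 CPM and LCN2 15.9 CPM there. In siDAB2IP the order changed: SLPI (661 ± 125 FPKM) and SAA1 (585 ± 104 FPKM) overlapped, PI3 (125 ± 17.7 FPKM) came next, SAA2 was at 14.1 ± 3.26 FPKM and LCN2 at 6.55 ± 3.87 FPKM. CHI3L1, SERPINA3, ORM1 and LTF all averaged under 1 FPKM there, at 0.98, 0.54, 0.21 and 0.048 FPKM.

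Most members shared the lowest library of a group. Among the 9 members that passed the filter, 7 were lowest in replicate 3 within siControl and 6 within siDAB2IP. By replicate number, 8 of the 9 were lower and 1, PI3, was higher in all 3 pairs. Shares of all genes tested with these patterns were not computed, so the counts describe the members only.

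Promoter windows were available for 5 of the 10 members, namely LCN2, LTF, ORM1, SERPINA3 and CHI3L1. They are shown because 4 of these genes were called lower, and because letters known from binding sites of inflammatory factors can be located in them. Each window holds the 250 bases before a transcription start of RefSeq (GRCh38.p14), 5′ to 3′ on the strand of the gene. Capitals mark matches to GGGNNNNNCC (an NF-κB-like pattern), TTGCNNAA (C/EBP-like) and TTCNNNGAA (STAT-like), each searched on both strands, and to TATAAA on the plus strand, with overlapping matches joined. For LTF 3 starts are listed, and the window shown is 1 of the 2 that held 2 kinds of match. The other, at chr3:46463655-46463904, held GGGACTGGCC from base -152 to -143 before its start and the STAT-like TTCCTGGAA from -42 to -34, and the third held no match.
LTF promoter window, chr3:46464906-46465155, minus strand: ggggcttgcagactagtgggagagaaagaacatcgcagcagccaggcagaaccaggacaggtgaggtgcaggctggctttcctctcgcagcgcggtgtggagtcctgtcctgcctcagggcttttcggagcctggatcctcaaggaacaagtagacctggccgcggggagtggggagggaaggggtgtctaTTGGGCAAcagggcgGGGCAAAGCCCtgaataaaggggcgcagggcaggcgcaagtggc
CHI3L1 promoter window, chr1:203186705-203186954, minus strand: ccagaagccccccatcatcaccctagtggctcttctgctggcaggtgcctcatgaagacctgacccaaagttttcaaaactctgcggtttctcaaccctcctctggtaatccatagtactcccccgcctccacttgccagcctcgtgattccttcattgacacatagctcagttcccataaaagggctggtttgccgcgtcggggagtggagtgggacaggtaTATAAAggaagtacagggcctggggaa
ORM1 promoter window, chr9:114322848-114323097, plus strand: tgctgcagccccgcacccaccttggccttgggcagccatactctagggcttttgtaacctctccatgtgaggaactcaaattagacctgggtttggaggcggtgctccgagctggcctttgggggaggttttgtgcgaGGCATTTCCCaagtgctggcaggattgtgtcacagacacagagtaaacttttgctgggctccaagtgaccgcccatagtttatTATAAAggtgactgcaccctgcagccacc
SERPINA3 promoter window, chr14:94612141-94612390, plus strand: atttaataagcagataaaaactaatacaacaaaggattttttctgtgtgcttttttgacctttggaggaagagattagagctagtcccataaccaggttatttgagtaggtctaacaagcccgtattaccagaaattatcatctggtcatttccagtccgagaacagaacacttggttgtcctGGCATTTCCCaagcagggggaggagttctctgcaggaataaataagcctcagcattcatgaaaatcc
LCN2 promoter window, chr9:128149203-128149452, plus strand: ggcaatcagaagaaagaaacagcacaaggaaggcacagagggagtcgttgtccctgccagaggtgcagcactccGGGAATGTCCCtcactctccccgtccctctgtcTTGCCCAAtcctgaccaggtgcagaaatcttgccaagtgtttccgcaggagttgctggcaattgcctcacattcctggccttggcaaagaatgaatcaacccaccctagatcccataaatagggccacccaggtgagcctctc
Of 35116 such windows over all genes, 54.4% held GGGNNNNNCC, 9.05% TTGCNNAA, 6.57% TTCNNNGAA and 6.80% TATAAA. The NF-κB-like pattern is thus too frequent to set a gene apart. It occurred in the windows of LCN2, LTF, ORM1 and SERPINA3 and not in that of CHI3L1. LCN2, the member of this group that was not called, carried the run GGGAATGTCCC from base -176 to -166 before the start and TTGCCCAA from -143 to -136. ORM1 and SERPINA3, both called lower, shared the run GGCATTTCCCAAG of 13 bases, from -112 to -100 in ORM1 and from -67 to -55 in SERPINA3. It occurred in 2 of the 35116 windows, those of these genes, and was picked out after the windows had been read. The run was taken as the longest that these 2 windows share, so its rarity carries no weight. Other pairs of windows were not compared. ORM1 and CHI3L1 had TATAAA starting at -29 and -27. A match is a run of letters and says nothing on whether a factor binds there in MCF10A.

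The wider surroundings of the members were read from 7 lists of genes, 190 genes in all, made with results of these data known. Of these, 98 passed the filter, 23 (23.5%) were called lower and 7 (7.14%) higher, beside 7.65% and 6.55% of all genes tested. Because of how the lists were made, these shares describe the listed genes and carry no weight of their own. Each library was also left out in turn: 15 of the 30 genes called kept their call in all 6 such fits, namely SAA4, SERPINA1, S100A8, MUC1, WFDC2, LIF, IL1R1, IL1RAP, IL6R, IL6ST, OSMR, LIFR, NFKBIZ, EHF and PRSS8.

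Of the ligands, receptors and transcription factors through which acute-phase genes are known to be induced, 36 were tested, 14 were called lower and 2, both ligands, higher, with a median log2 fold change of -0.38. The receptor chains for IL-1, IL-6 and related cytokines named next are those that were called, and each was lower. Of the 36 genes of this list, 20 were not called. LIFR, a receptor of leukemia inhibitory factor, fell from 51.6 ± 3.93 to 18.5 ± 2.45 CPM (log2 fold change -1.48, edgeR adjusted p = 0.000227). IL6R fell by 1.16 on the log2 scale, its signalling partner IL6ST by 0.82, and OSMR, the oncostatin M receptor, by 0.99 (edgeR adjusted p = 0.00205, 0.00350 and 0.00338). The IL-1 receptor chains IL1R1 and IL1RAP fell by 0.87 and 0.88 (edgeR adjusted p = 0.00502 and 0.00204). Among transcription factors and their regulators, EHF, an epithelial ETS factor, fell by 1.35, SOCS3, a feedback inhibitor of STAT3 signalling, by 1.5, CEBPD by 0.75, NFKBIZ, a nuclear IκB protein needed for LCN2 induction, by 0.56, BCL3 by 0.49, NFKBIA by 0.47, NFKB1 by 0.46 and STAT3 by 0.39, all on the log2 scale. CEBPD was near the threshold (edgeR adjusted p = 0.0497). The ligands LIF (log2 fold change 1.71, edgeR adjusted p = 0.000619) and IL1B (1.35, edgeR adjusted p = 0.0168) rose. IL1A (0.29), CEBPB (-0.09), ELF3 (-0.36), RELA (0.09) and IL6 (-1.60, at 1.11 ± 0.26 and 0.36 ± 0.34 CPM) were not called. The count of 14 fell to 9 without siControl replicate 1 and to 8 without siControl replicate 2, and the count of 2 to 1 without the latter, where IL1B was not called (adjusted p = 0.0670). NFKB1, NFKBIA, BCL3, CEBPD, STAT3 and SOCS3 each lost the call in 2 to 4 of the 6 fits without a library.

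**Figure D4:**
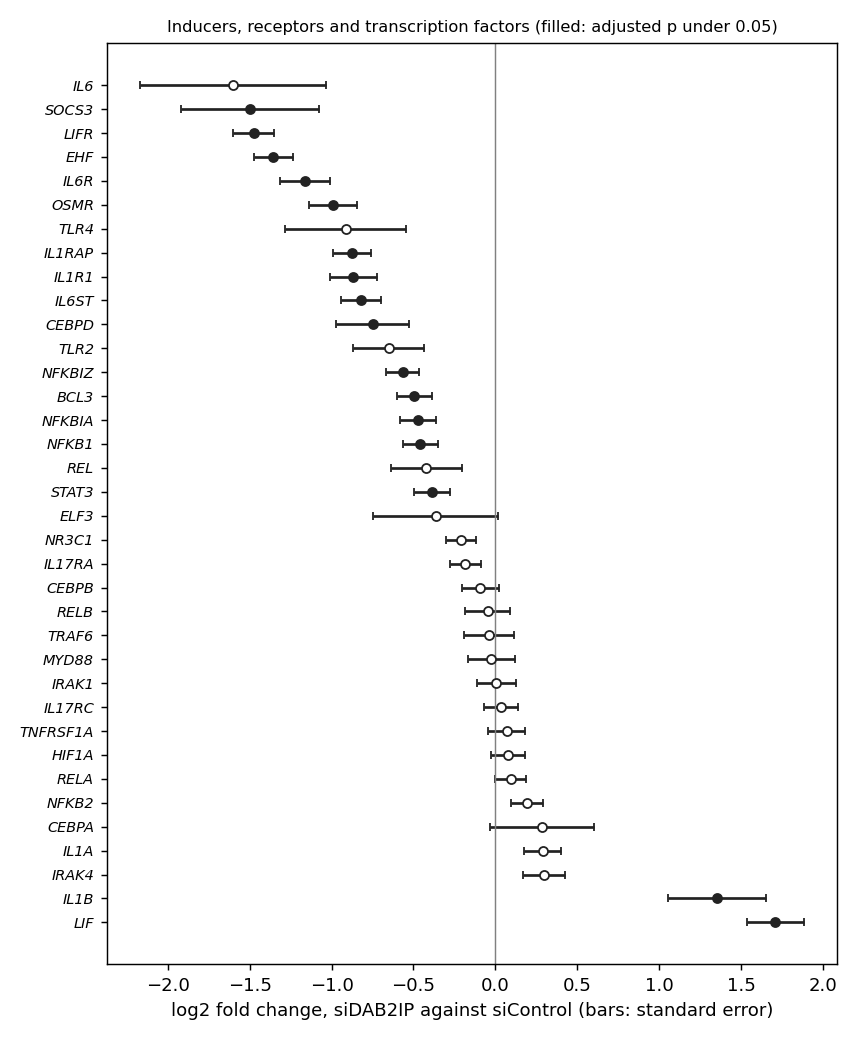
Log2 fold change of siDAB2IP against siControl for the 36 tested genes of the list of inducers, receptors and transcription factors, sorted by value. Bars are standard errors and filled points an edgeR adjusted p under 0.05. LIFR, EHF, IL6R and SOCS3 are among the 14 filled points below 0, and LIF and IL1B are the 2 above it.

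Of 32 other acute-phase plasma protein genes, 10 passed the filter, 2 were called lower and 2 higher, with a median log2 fold change of 0.08. With the replicate number as a block, 4 of the 10 were called lower and 3 higher. The genes called lower were SAA4 and SERPINA1, alpha-1-antitrypsin (log2 fold change -1.23, edgeR adjusted p = 0.00499). Those called higher included IL1RN, the IL-1 receptor antagonist (0.87, edgeR adjusted p = 0.0479). The count of 2 was 0 without siControl replicate 1 or 2, and IL1RN kept its call in 1 of 6 fits without a library, that without siDAB2IP replicate 3. Of 42 other secreted defense genes, 22 were tested and 4 were called lower. They were S100A8, a calprotectin subunit (204 ± 49.3 to 49.1 ± 29.3 CPM, edgeR adjusted p = 0.0121), SFTPD, surfactant protein D (log2 fold change -2.28, edgeR adjusted p = 0.0120), the mucin MUC1 (-0.82, edgeR adjusted p = 0.00767) and the chaperone CLU (-0.78, edgeR adjusted p = 0.0354). None was called higher by edgeR without the block, with 2 at an unadjusted p under 0.05. DESeq2 called 1 higher, as did edgeR with the replicate block, with no filter on low counts, and without siDAB2IP replicate 1 or 3. Without siControl replicate 2 the count of 4 was 2, SFTPD and CLU having lost their calls, and CLU lost it also without siControl replicate 1 or siDAB2IP replicate 2. S100A9, the partner of S100A8, measured 453 ± 113 and 162 ± 103 CPM and was not called (edgeR adjusted p = 0.0511).

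Close relatives of the members gave few calls. Of 20 other WAP domain genes 3 were tested, and WFDC2 fell from 4.49 ± 0.59 to 0.70 ± 0.18 CPM (log2 fold change -2.67, edgeR adjusted p = 0.000759), whereas its relatives SLPI and PI3 were not called. Among 12 other clade A serpins 3 were tested and SERPINA1 was called lower, and with the replicate block 2 were. Among 19 other lipocalin and transferrin genes 7 were tested and MELTF, or melanotransferrin, was called higher (0.41, edgeR adjusted p = 0.0496), a call kept in 1 of 6 fits, that without siDAB2IP replicate 1. Of 30 receptors and protease targets of the member proteins, 21 were tested. SCARB1, a receptor of high-density lipoprotein and SAA, rose (0.63, edgeR adjusted p = 0.0122), as did the membrane protease PRSS8 (0.84, edgeR adjusted p = 0.00767). MMP9, whose protein binds LCN2, fell from 1.31 ± 0.22 to 0.26 ± 0.18 CPM (-2.29, edgeR adjusted p = 0.0168), and PLSCR1, which binds SLPI, fell by 0.53 on the log2 scale (edgeR adjusted p = 0.0161). Without siControl replicate 1 or 2, SCARB1 and MMP9 lost their calls, and PLSCR1 did so without siControl replicate 2 or 3 or siDAB2IP replicate 1.

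Profiles over the 6 libraries were compared by the Euclidean distance of log2 CPM, centred on the mean of each gene, among 9437 genes with a mean of at least 10 CPM. The genes nearest to SAA1 plus SAA2 were DAB2IP (distance 0.26), the metallothioneins MT2A (0.34) and MT1E (0.36), TC2N (0.37) and PDZK1IP1 (0.39). The centring spans both groups, so genes with a log2 fold change like that of the sum (-1.86) come out near. Those of the genes just named ran from -2.08 (MT1E) to -1.68 (TC2N), with DAB2IP at -1.86. MT2A, at 1214 CPM in siControl and 377 CPM in siDAB2IP, was of similar abundance to the sum. Nearest to LCN2 were IFITM1 (0.54), AZGP1 (0.72), CPE (0.81), SLC6A9 (0.83) and PROM2 (0.86), all of which were lowest in replicate 3 within each group. The distances describe these 6 libraries, share the library sizes and carry no test.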

How the data were processed

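RNA-Seq of 6 MCF10A libraries was used, 3 siControl and 3 siDAB2IP. Per the submitters' processing notes, STAR 2.6.1d, featureCounts 1.5.0-p3, DESeq2 1.20.0, edgeR 3.24.3 and hg38 were named; the strand setting of the counting was not given in the sources used here. The authors deposited raw counts per gene, without normalization, and FPKM values; the authors made the FPKM from the counts, gene length and a library total rescaled to 98.9% to 104.7% of the summed counts. Depth was 16353783 to 21916062 counts, which limits statements on LTF, ORM1 and ORM2.

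Counts were fitted with edgeR 4.0.16 in R 4.3.3 (filterByExpr by group, TMM, glmQLFit and glmQLFTest, siDAB2IP against siControl, Benjamini-Hochberg adjustment over 15430 genes). CPM are TMM-scaled. For the correlations between libraries, log2 CPM used a prior count of 2. Differences by replicate number used a smaller offset on each count, and the profile distances used none. SEs were derived from the F statistic. Counting intervals are exact at 95% and leave out the spread between libraries. Alternatives used DESeq2 1.42.0, limma 3.58.1 on log2(FPKM + 1) and log2(FPKM + 0.1), other scalings and filters, a replicate block and leaving out each library. The scripts were tested on simulated data with 200 changed genes. Equally numbered libraries deviated together from their group means (correlations 0.26, 0.15 and 0.25 across genes, each over 0.1; other pairs -0.28 to 0.02), which was read as pairing; the main fit had no block.

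The members and lists were chosen with earlier results of these data known. Named were the members and their sums, DAB2IP, called genes of the lists and the 5 with the smallest p of each, SAA4, SAA2-SAA4, WFDC2, SERPINA1, NFKBIZ, CEBPB, CEBPD, STAT3, IL1A, IL1B, IL6 and ELF3, genes overlapping a member, and the 5 profiles nearest to SAA1 plus SAA2 and to LCN2. Genes near a member, RELA, S100A9 and the cell type markers were named beyond that rule, after their values were seen. The values of 1 called gene of the acute-phase list are not reported here.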

Additional observations from a re-analysis of the deposited data

How the results depend on the processing

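The 6 members called lower were also called with DESeq2, other scalings, limma on FPKM and without each library, where the count stayed at 6 (7 without a filter on low counts). A minimum of 10 counts in every library left out LTF and ORM1, so that 4 were called. The number of members called higher was 0 and became 1, PI3, with the replicate block, which also added LCN2 and SLPI to those called lower. LCN2 was called without a filter on low counts as well; without single libraries its log2 fold change ranged from -0.94 to -0.17. SAA1 plus SAA2 stayed between -1.95 and -1.71 without single libraries. Of the list genes, 23 were called lower; limma on unfiltered log2(FPKM + 1) gave 9, and leaving out single libraries gave 13 (without siControl replicate 2) to 26. The 7 called higher became 11 without a filter and 1 with limma on unfiltered log2(FPKM + 1), and ranged from 2 (without siControl replicate 2) to 9 without single libraries; without siControl replicate 1 there were 3. The causes were not tested. The sum of ORM1 and ORM2 has no value under the minimum of 10 counts. All genes called numbered 2192, against 3233 with the replicate block and 723 without siControl replicate 2. Depth limits LTF, ORM1 and ORM2, whose siDAB2IP libraries held at most 9 counts.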
